A study of Mus musculus with 3 samples.

Results

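Gfap, Vim, Nes, Serpina3n, Aqp4, Osmr, Stat3, Cd44, Anxa1 and Anxa2 are 10 genes used to describe reactive astrocytes and the mesenchymal programme of glioma, and their single-cell counts in mouse brainstem are described here. They were taken by gene symbol from the 32285 features of each library, and all 10 were present. The libraries were 2 tumour-bearing brainstems (tumour 1 and tumour 2) and 1 brainstem without tumour (normal), all from B6(Cg)-Tyrc-2J/J mice. The tumour mice were 6 weeks old when 100000 cells of DIPG4423, a single murine diffuse midline glioma (DMG) line, were injected into the brain. Their brainstems were taken 3 weeks later with no treatment given. Every brainstem was perfused with saline, ground in glass, depleted of myelin with magnetic beads and treated to lyse red cells. The lone normal library limits every comparison with it, and no sham-injected brainstem was analysed here.

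Astrocytes respond to injury and to tumour with reactive gliosis, in which the intermediate filament proteins Gfap, vimentin (Vim) and nestin (Nes) accumulate and the protease inhibitor gene Serpina3n is induced. The response runs in part through cytokines of the interleukin-6 family: oncostatin M binds a receptor made of Osmr and Il6st, Janus kinases are activated, and the transcription factor Stat3 carries the signal to the nucleus. In glioma the same receptor and transcription factor, together with the hyaluronan receptor Cd44 and the calcium-dependent membrane-binding annexins Anxa1 and Anxa2, are used as markers of a mesenchymal tumour state. Aqp4 is the water channel of astrocyte endfeet, which surround brain vessels.

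In the mouse annotation (GENCODE release 21 for GRCm38, the assembly that mm10 names) all 10 are protein-coding genes. Gfap lies on the minus strand at chr11:102887336-102900912 and Vim on the plus strand at chr2:13573927-13582826. Anxa1 lies on the minus strand at chr19:20373428-20390944, Anxa2 on the plus strand at chr9:69453620-69491795 and Osmr on the minus strand at chr15:6813577-6874969. Stat3 overlaps Stat5a and Anxa1 overlaps 1500015L24Rik, both on the opposite strand, while Anxa2 overlaps the microRNA gene Mir3109 on its own strand. Serpina3n is 1 of 10 Serpina3 family symbols in the feature list, so reads shared with its near copies could be split among them.

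A promoter entry in RefSeq's mouse sequences (GRCm38.p6) was found for 9 of the 10 genes. The 250 bases before the RefSeq start of Vim, Anxa1, Anxa2 and Osmr are printed because these genes moved most clearly in vessel cells, the first 3 upward in tumour and Osmr downward. Capitals mark the TATA box TATAAA in the first 3, also the AP-1 motif TGANTCA in Anxa2, and the GC box GGGCGG read on the other strand in Osmr. The windows stand, in that order, at chr2:13574061-13574310 on the plus strand, chr19:20390672-20390921 on the minus strand, chr9:69453433-69453682 on the plus strand and chr15:6874314-6874563 on the minus strand. By the gene coordinates above, the windows of Vim, Anxa1 and Osmr lie inside the annotated genes, and that of Anxa2 runs into its gene. The RefSeq starts used here thus lie downstream of the annotated gene starts.
Vim: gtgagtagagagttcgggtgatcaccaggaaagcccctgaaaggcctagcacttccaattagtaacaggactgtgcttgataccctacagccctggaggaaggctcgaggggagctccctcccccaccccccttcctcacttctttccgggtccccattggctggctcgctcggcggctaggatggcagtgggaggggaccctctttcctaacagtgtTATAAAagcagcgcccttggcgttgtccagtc
Anxa1: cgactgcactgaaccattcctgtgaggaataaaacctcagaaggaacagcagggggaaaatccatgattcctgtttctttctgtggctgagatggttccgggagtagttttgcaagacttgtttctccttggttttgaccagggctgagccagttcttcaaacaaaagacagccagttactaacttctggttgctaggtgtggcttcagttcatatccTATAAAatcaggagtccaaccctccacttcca
Anxa2: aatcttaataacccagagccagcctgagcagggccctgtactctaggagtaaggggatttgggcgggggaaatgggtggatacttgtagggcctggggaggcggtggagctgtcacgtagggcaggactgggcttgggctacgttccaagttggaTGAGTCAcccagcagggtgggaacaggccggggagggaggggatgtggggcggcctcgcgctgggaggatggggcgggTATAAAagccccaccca
Osmr: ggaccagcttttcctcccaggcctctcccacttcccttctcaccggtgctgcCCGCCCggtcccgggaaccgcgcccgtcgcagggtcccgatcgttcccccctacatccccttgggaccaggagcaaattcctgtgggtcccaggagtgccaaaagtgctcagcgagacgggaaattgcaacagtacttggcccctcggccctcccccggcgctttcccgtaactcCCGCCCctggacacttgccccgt
The TATA box starts 32 bases before the RefSeq start in Vim, 32 in Anxa1 and 17 in Anxa2. The AP-1 motif of Anxa2 starts 95 bases before it, and the GC boxes of Osmr start 198 and 23 bases before it. Both strands were searched for 10 motifs, and no marked motif overlapped another match in the printed windows. Over the 250 bases before the start of 32851 promoters, TATAAA was found in 12.4% and in 3 of the 9 (Vim, Anxa1, Anxa2), and TGANTCA in 6.75% and in Anxa2 alone. The GC box GGGCGG was found in 32.7% and in 4 (Nes, Osmr, Stat3, Anxa2), the NF-kappaB motif GGGANNNNCC in 17.6% and in 5 (Vim, Nes, Serpina3n, Osmr, Anxa1), and the TEAD motif CATTCC in 12.6% and in 2 (Stat3, Anxa1). Among the 9 windows, 0 held the STAT motif TTCNNNGAA (7.02% of all), the C/EBP motif TTNCNCAA (11.7%), the E-box CACGTG (6.02%), the NFI motif TGGCNNNNNGCCA (0.703%) or the CArG box (1.47%). A match is a run of letters and nothing more, and a motif missing from this window says nothing of the factor.

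After filtering, 10550, 9407 and 3083 cells were kept in tumour 1, tumour 2 and normal, with median totals of 8783.5, 11297 and 2395 UMIs (unique molecular identifiers, each counting 1 captured transcript). Between 13 and 37 cell barcodes were shared by any pair of libraries. Clusters were made without the 10 genes and named from marker lists, so the classes are called astrocyte-like and so on. All 10 astrocyte markers were detected in the astrocyte-like class of every library, and all 7 endothelial markers in the endothelial-like class. Glioma cells formed the glial progenitor-like class, with 4356 and 2077 cells in the tumours and 1 in normal. Of their cells, 96.6% and 95.9% held a UMI of Xist, an RNA of female cells, while the 4 Y-linked genes summed to 2.11 and 4.53 CPM (the summed UMIs of a gene, scaled to the same total of UMIs in each class and library). Astrocyte-like cells had the opposite pattern, with Xist at 31.8, 19.5 and 0 CPM and the Y-linked genes at 432, 340 and 371 CPM for tumour 1, tumour 2 and normal. The astrocyte-like class is thus mainly of host RNA. Intervals below are 95% intervals for counting error within a library, and no test is given between classes or states, since they were cut from the same cells.

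**Figure D1:**
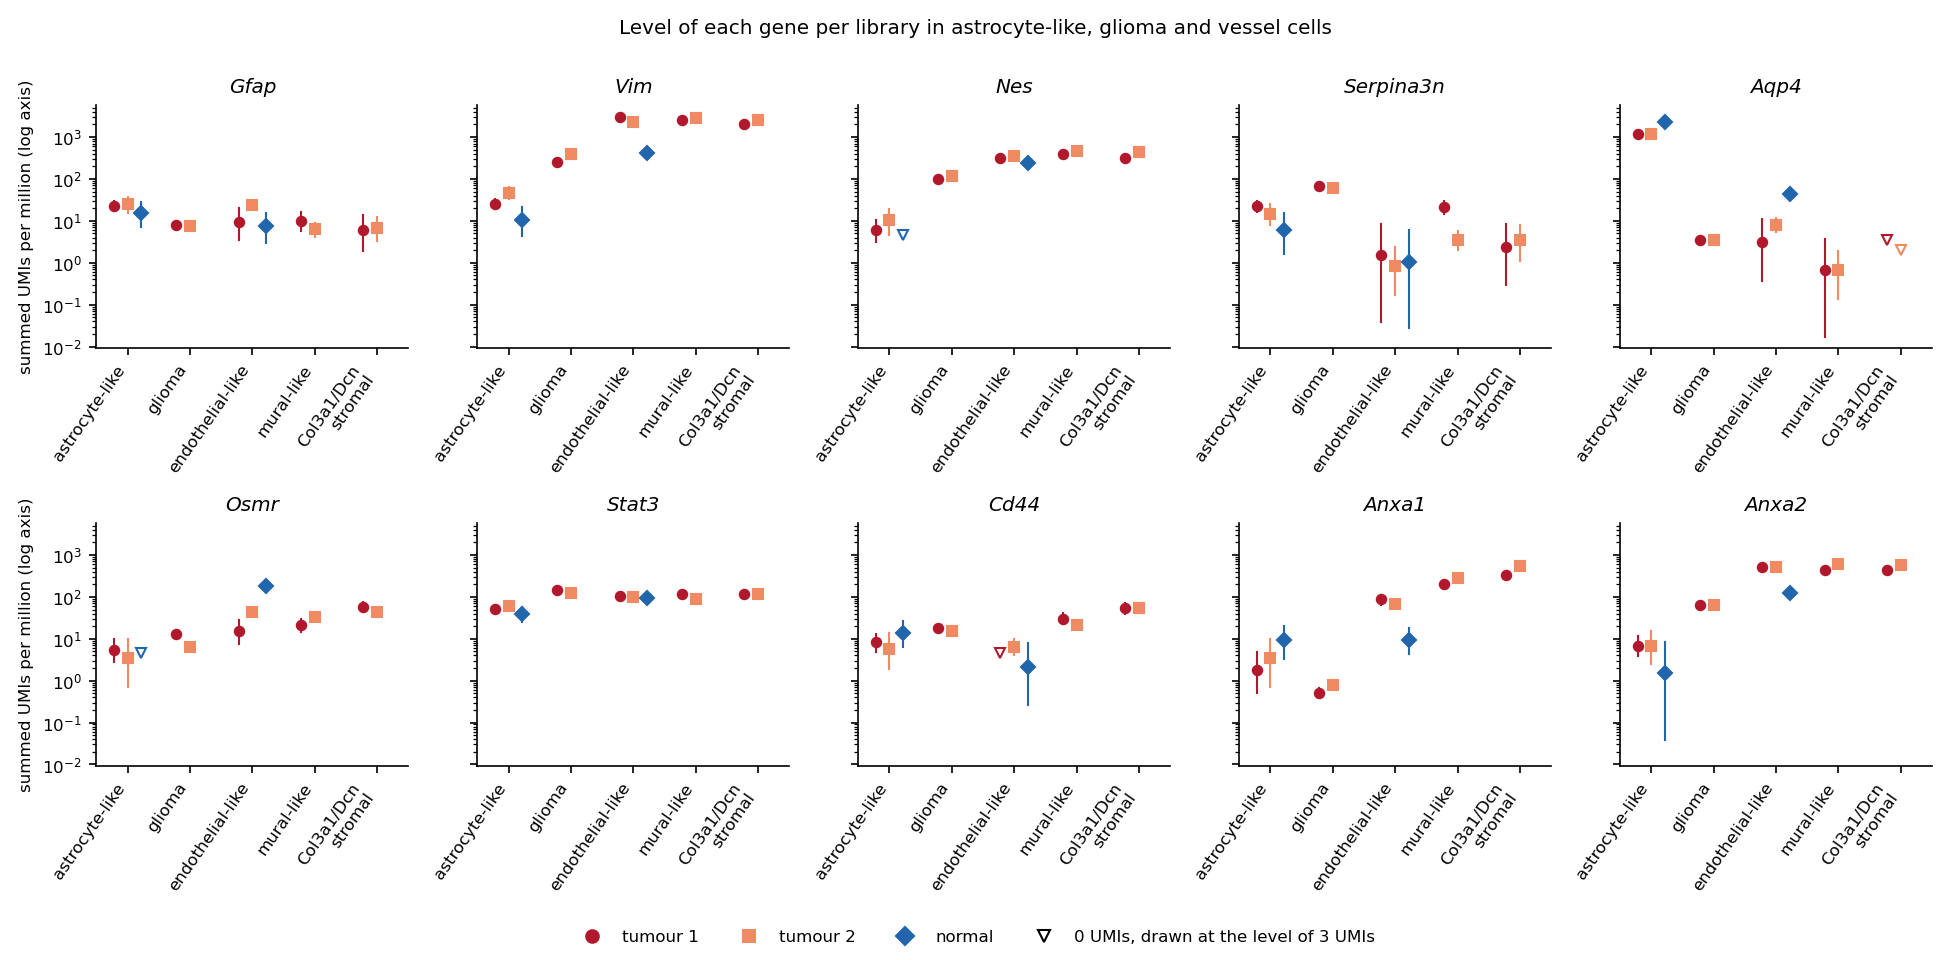
Level of each of the 10 genes (CPM of summed UMIs, log axis) in astrocyte-like, glioma, endothelial-like and mural-like cells and in vessel subcluster 6, with 1 point per library and bars for 95% counting intervals. Aqp4 is highest in astrocyte-like cells, Osmr in the normal endothelial-like cells at 184 CPM, and Serpina3n in glioma at 66.3 and 61.2 CPM.

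The genes differed in the cell classes that held them. Aqp4 was an astrocyte gene in these libraries: astrocyte-like cells held 82.3%, 76.5% and 86.3% of all its UMIs in tumour 1, tumour 2 and normal. Serpina3n was a glioma gene in the tumours, where glioma cells held 94.0% and 96.8% of its UMIs. Gfap, the classical astrocyte filament, also lay mostly in glioma cells, with 74.7% and 69.0% of its UMIs against 4.75% and 3.08% in the few astrocyte-like cells. In the normal library astrocyte-like cells held 28.6% of 35 Gfap UMIs. Endothelial-like cells of the normal library held 95.03% of Osmr UMIs and 91.6% of Nes UMIs, whereas in the tumours glioma cells held 88.8% and 49.9% of Osmr and 87.0% and 60.4% of Nes. Neutrophil-like cells held 54.3%, 25.2% and 88.8% of Anxa1 and 13.2%, 15.8% and 68.8% of Cd44 in the same order. Glioma cells held 52.6% and 23.0% of Cd44 in the tumours, and border macrophage-like cells 16.96% and 33.4%. These shares follow the number of cells of each class as well as their levels.

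**Figure D2:**
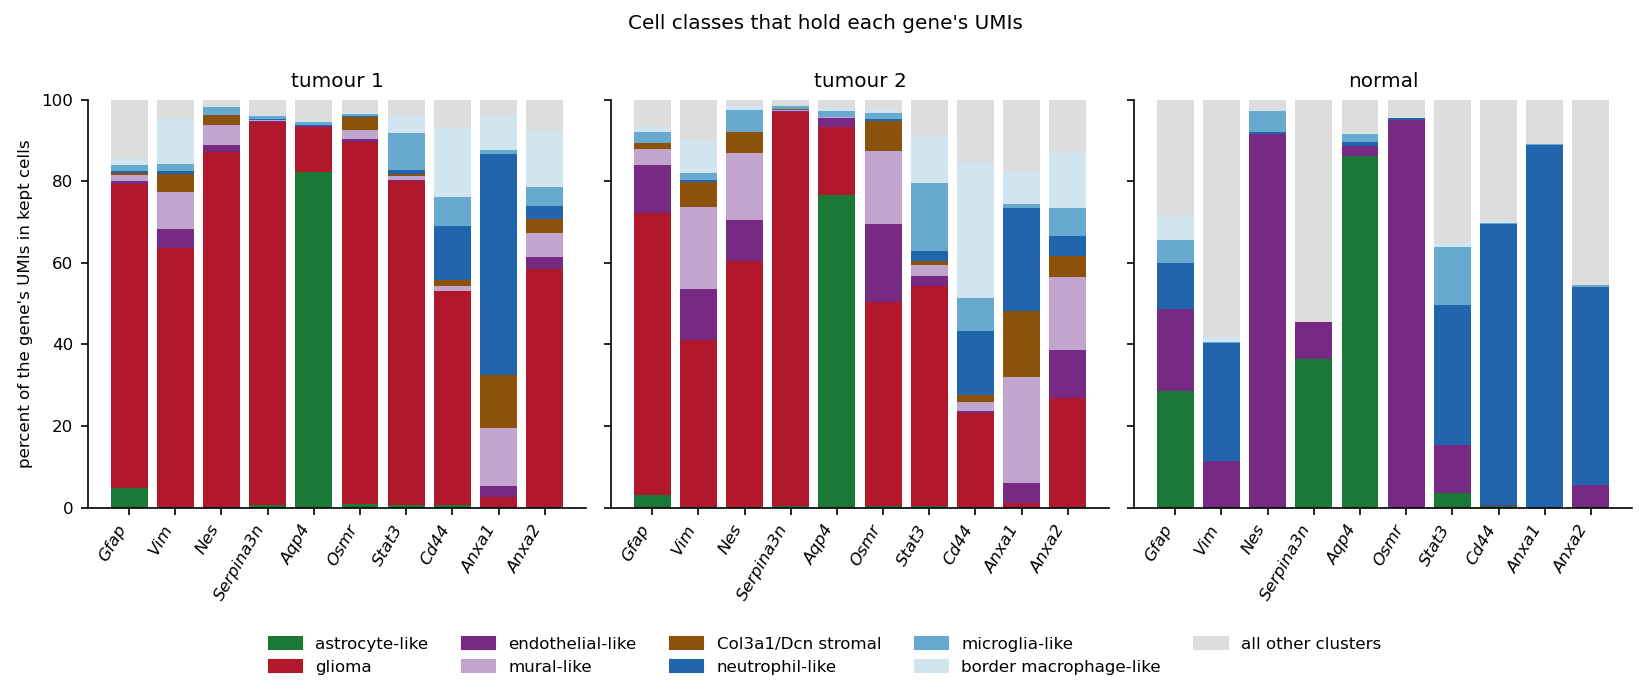
Share of each gene's UMIs (percent of its UMIs in the library) held by each cell class, with 1 bar per library. Serpina3n lies in glioma cells in both tumours, Aqp4 in astrocyte-like cells in all 3 libraries, and Anxa1 in neutrophil-like cells in normal (88.8%).

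In astrocyte-like cells the clearest change was a loss of Aqp4, not a rise of the filament genes. The class had 443, 119 and 195 cells in tumour 1, tumour 2 and normal. Aqp4 measured 1161 CPM in tumour 1, 1199.7 CPM in tumour 2 and 2234 CPM in normal. The tumour values lie close together and well below the normal one, a log2 change of -0.96 (SE 0.19, adjusted p = 0.00333). Of the 10 genes, 6 passed the low-count filter here, and edgeR called 0 higher and 1 lower, as did DESeq2. At an unadjusted p below 0.05, 2 were higher (Vim and Serpina3n) and 1 lower. Across the 9767 genes tested, 2.5% were higher and 1.94% lower, 4.43% in all. The median log2 change of the 6 was 0.56, beside 0.01 over all genes tested. The p-values cover no spread beyond these libraries. There was 1 residual degree of freedom, from the tumour pair, and the normal library was assumed to vary like it. Beside that 1, a spread pooled over genes weighed 27.1 degrees of freedom in the fit of this class. The fits of the other classes also drew on a spread pooled over genes.

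The intermediate filament genes were low in astrocyte-like cells of every library. Vim stood at 25.3 and 47.0 CPM in the tumours and 10.7 CPM in normal, from 55, 41 and 7 UMIs. Both tumour values were above the normal one, with a log2 change of 1.61 (SE 0.55) that missed the threshold at adjusted p = 0.0951. The call depended on the setting: Vim passed without the low-count filter, with doublets kept, among cells without an Xist UMI (log2 1.64, adjusted p = 0.0471), and at the finer clustering (2.54). If the Xist UMIs in this class came with glioma RNA, that RNA would bring 7.73 and 7.35 CPM of Vim, and its part in the result was not tested. Cdkn2a, at 438 and 457 CPM in glioma cells, stood at 23.9, 12.6 and 0 CPM in the astrocyte-like class. That is a larger share of its glioma level than for Xist, so estimates for this class scaled by Cdkn2a would be larger. Gfap stood at 23.0 and 25.2 CPM in the tumours and 15.3 CPM in normal (50, 22 and 10 UMIs), a log2 change of 0.60 (SE 0.50, adjusted p = 0.559). Its UMIs appeared in 6.998%, 9.24% and 4.10% of the cells, with median totals of 4706, 7283 and 2978 UMIs, and after thinning every cell to 1000 UMIs in 2.03%, 1.69% and 0.521%. In microglia-like cells, which do not make Gfap, the thinned shares were 0.118%, 0.105% and 0.173%. The thinned normal share rests on 1 of 192 cells. Nes had 13, 9 and 0 UMIs in the class, too few to be tested, and glioma RNA traced by Xist would bring 6.5 and 1.9 of them.

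Among the secreted and signalling genes, Serpina3n, an inhibitor of serine proteases, stood at 22.1 and 14.9 CPM in the tumours and 6.105 CPM in normal, from 48, 13 and 4 UMIs. The tumour values were both above normal, but the log2 change of 1.62 (SE 0.69) missed the threshold at adjusted p = 0.196. It was called only at the finer clustering (log2 3.11). At that setting, which also called Vim, the class held 454, 123 and 195 cells, so that it was larger in the tumours alone. The part of the added cells was not tested. Stat3 stood at 52.0 and 61.9 against 38.2 CPM (log2 0.51, adjusted p = 0.448). Osmr had 12, 3 and 0 UMIs, and its pooled tumour level of 4.92 CPM barely exceeded the 4.58 CPM that a count of 0 allows in normal. Cd44 stood at 8.28 and 5.73 against 13.7 CPM (log2 -0.93, adjusted p = 0.598). Anxa1 had 4, 3 and 6 UMIs. Anxa2 had 15, 6 and 1, a pooled ratio of 4.52 with an interval from 0.73 to 187. The normal astrocyte-like cells carried neutrophil markers at 1334 CPM, against 35.0 and 33.2 CPM in the tumours. Were these from neutrophil RNA, it would bring 7.2 Anxa1 and 1.1 Cd44 UMIs to the normal class, beside the 6 and 9 found.

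The wider astrocyte lists gave few calls. Of 19 homeostasis genes tested, 1 was higher and 2 were lower, with a median log2 change of 0.08. The serine protease Htra1 rose from 1029 CPM in normal to 1977 and 1955 CPM (log2 0.89, adjusted p = 0.0112). The potassium channel Kcnj10, a partner of Aqp4 at endfeet, fell from 1309 to 822 and 776 CPM (log2 -0.75, adjusted p = 0.0261). Gja1, the gap junction protein connexin 43, fell from 4090.1 to 2579 and 2614 CPM (log2 -0.70, adjusted p = 0.0303). Summed astrocyte markers differed little, at 24700, 23360 and 26103 CPM. Of 20 pan-reactive genes only 4 had counts enough to be tested. Of these edgeR called 0, and 1 (Lcn2, lower) had an unadjusted p below 0.05.

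Upstream of Stat3, 9 of 16 genes were tested in astrocyte-like cells, and edgeR called 0 higher and 2 lower (1 and 3 at an unadjusted p below 0.05). Il6st, the shared signalling receptor of the interleukin-6 family, fell from 82.4 to 35.9 and 32.1 CPM (log2 -1.29, adjusted p = 0.0112), and the growth factor receptor Egfr fell from 221 to 120 and 104 CPM (log2 -1.01, adjusted p = 0.0148). Downstream, 2 of 7 tested Stat3 target genes were higher and all 7 changes were positive (median log2 0.65). The cyclin gene Ccnd1 stood at 51.5 and 72.2 against 6.105 CPM (log2 3.23, adjusted p = 0.000432). Glioma RNA traced by Xist would bring 52.7 of its 112 UMIs in tumour 1 and 19.4 of 63 in tumour 2. Traced by Cdkn2a it would bring more in both tumours, and its part in the result was not tested. The immediate early gene Fos had 44, 11 and 0 UMIs, a mean tumour level at least 3.59-fold above the limit that 3 counts in the normal class give. Both genes are also targets of other pathways.

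The remaining lists changed little in astrocyte-like cells. Of 7 tested annexin and S100 genes, S100a11 alone was called, lower at 7.82 and 11.5 against 35.1 CPM (log2 -1.98, adjusted p = 0.0244), and 6.9 of its 23 normal UMIs are what neutrophil RNA would bring. Among 7 Cd44 ligand and hyaluronan genes 1 was higher: Spp1 (osteopontin) had 29, 21 and 0 UMIs, of which microglial RNA traced by its markers would bring 11.1 and 18.2 in the tumours. Microglia markers summed to 114, 417 and 151 CPM in the class, and their part in the result was not tested. The 8 other mesenchymal genes and 2 other filament genes tested gave 0 calls by edgeR, and 2 mesenchymal genes (Lgals1 and Tagln2, both higher) had an unadjusted p below 0.05.

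More of the 10 genes were called in endothelial-like than in astrocyte-like cells, though numbers of calls are no test between classes. The tumour and normal endothelial-like cells also lay mostly in different subclusters, as described below. In endothelial-like cells (53, 171 and 144 cells) 8 of the 10 genes could be tested, and 5 were higher and 2 lower in tumour. Change was common in this class, with 19.3% of 9990 genes higher and 13.8% lower, 33.1% in all. The median log2 change of the 8 was 1.17, against 0.00 over all genes. The fit gave the class an infinite prior weight, so its very small p-values rest on a spread pooled over genes.

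**Figure D3:**
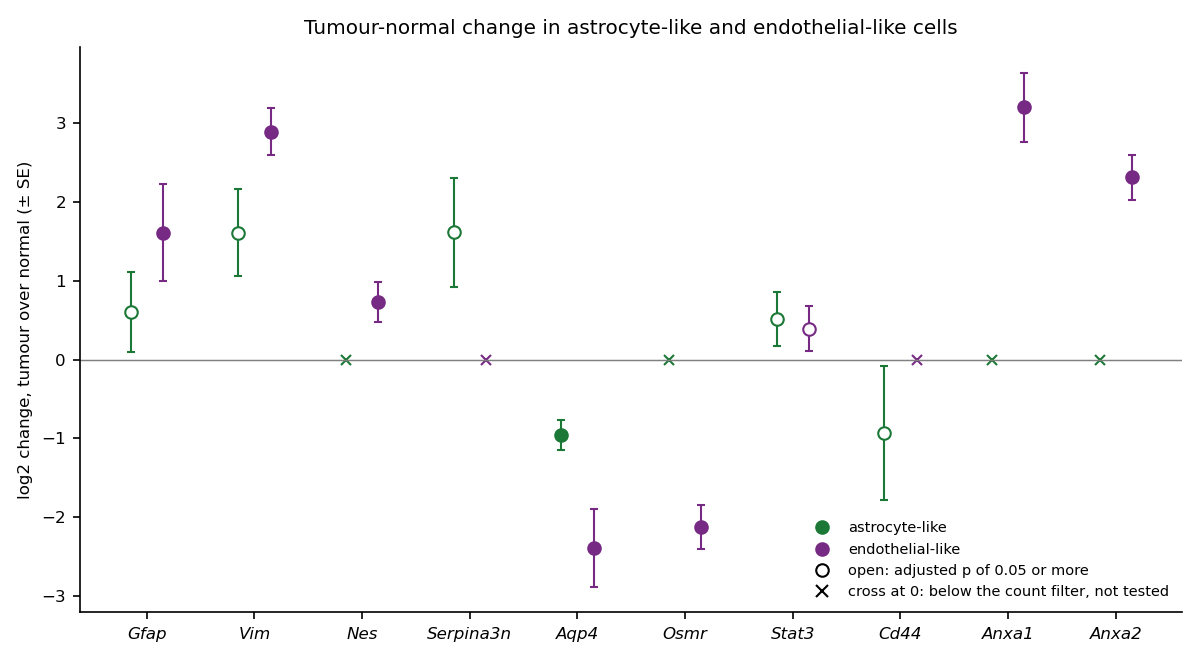
Log2 change of each tested gene, tumour over normal, in astrocyte-like and endothelial-like cells, with bars for 1 SE and filled points for adjusted p below 0.05. In endothelial-like cells Vim, Anxa1 and Anxa2 lie above 2 and Osmr and Aqp4 below -2, while Aqp4 is the only filled point in astrocyte-like cells.

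Vim, which also marks endothelium and mesenchymal cells, stood at 3012 and 2231 CPM in the tumours and 421 CPM in normal. The groups are far apart, with a log2 change of 2.89 (SE 0.30, adjusted p = 9.04e-20). The stem-cell filament gene Nes stood at 314 and 362 against 245 CPM (log2 0.73, SE 0.26, adjusted p = 0.0175), a smaller step that was lost with library size as the sole scaling (log2 0.47) and with DESeq2 (adjusted p = 0.208). Gfap stood at 9.33, 23.7 and 7.48 CPM, and tumour 1 was close to normal. Its log2 change of 1.61 (SE 0.62, adjusted p = 0.0315) fell to 0.57 without tumour 2, and the call was lost in 7 of the alternatives tested.

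Both annexins rose in endothelial-like cells. Anxa1, known for limiting leukocyte recruitment, stood at 87.0 and 67.2 CPM in the tumours and 9.61 CPM in normal (log2 3.20, SE 0.44, adjusted p = 1.34e-11). Anxa2, which forms a cell-surface complex with S100a10 that promotes plasmin formation, stood at 505 and 509 against 122 CPM (log2 2.31, SE 0.29, adjusted p = 3.35e-14). In neither gene did tumour and normal values overlap, and both calls held with DESeq2, as did that of Vim. Of 9 other annexin and S100 genes tested, 5 were higher and 0 lower. Among them S100a6 rose from 21.4 to 305 and 214 CPM (log2 3.83, adjusted p = 1.1e-24), Anxa6 from 16.0 to 196 and 159 CPM (log2 3.70, adjusted p = 1.63e-20), and S100a11 from 132 to 525 and 605 CPM (log2 2.35, adjusted p = 1.06e-14).

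Osmr went the other way. It stood at 15.5 and 44.1 CPM in the tumour endothelial-like cells and 184 CPM in normal (log2 -2.13, SE 0.28, adjusted p = 1.14e-12). Both tumours were below normal, tumour 1 on 10 UMIs, and the log2 change was -3.29 without tumour 2. DESeq2 gave a similar change of -2.33 that missed its threshold (adjusted p = 0.208). Its partner Il6st fell too, from 163 to 82.4 and 68.6 CPM (log2 -0.89, adjusted p = 0.00528). So did Lifr, another receptor gene of the upstream list, from 123 to 43.5 and 55.8 CPM (log2 -0.997, adjusted p = 0.00279). Of 8 upstream genes tested, 2 were lower and 1 higher, the interleukin-11 receptor Il11ra1 (log2 1.08, adjusted p = 0.0135). Stat3 itself stood at 106 and 97.9 against 91.9 CPM (log2 0.39, adjusted p = 0.305). Mural markers summed to 5937 CPM in the normal endothelial-like class and to 915 and 1242 CPM in the tumours, and their part in the Osmr result was not tested.

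Genes that Stat3 is known to activate were mostly higher in the same cells, with 10 of 15 higher and 2 lower (median log2 1.68). Socs3, the feedback inhibitor of the pathway, had 43, 136 and 1 UMIs, or 66.8, 37.9 and 1.07 CPM (log2 5.64, adjusted p = 1.1e-12). Myc had 7, 47 and 0 UMIs, at least 3.74-fold above the normal limit. Runx1 rose from 2 UMIs in normal to 16 and 109 (log2 3.94, adjusted p = 1.58e-06). The survival gene Bcl2l1 (log2 -0.80, adjusted p = 0.00872) and the transglutaminase Tgm2 (log2 -0.95, adjusted p = 0.00759) fell.

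The mesenchymal list moved in the same direction, with 10 of 15 tested genes higher and 1 lower (median log2 1.54). The galectin Lgals1 rose from 5.34 to 160 and 147 CPM (log2 5.07, adjusted p = 2.22e-25), and Timp1 had 6, 55 and 0 UMIs, at least 3.85-fold above its limit. Nampt, an enzyme of NAD synthesis, fell from 727 to 177 and 206 CPM (log2 -1.66, adjusted p = 1.14e-10). Of 12 pan-reactive genes tested, 6 were higher, Cd109 (12, 55 and 0 UMIs) and Emp1 (log2 3.01, adjusted p = 0.000326) among them, and 3 lower: Gbp2 (log2 -2.65), Mt2 (-1.35) and S1pr3 (-0.96). Among 5 filament genes and partners 3 were higher: the lamins Lmnb1 (log2 2.66) and Lmna (0.92) and the linker Plec (1.82). Among 6 Cd44 ligand and hyaluronan genes 3 were higher: Spp1 (log2 7.20), the membrane protease Mmp14 (3.79) and the cytoskeletal linker Msn (1.03). Spp1 is also a microglial gene, and microglia markers summed to 763, 1430 and 210 CPM in the class. By those markers microglial RNA would bring 21.9 of 23 and 257 of 787 Spp1 UMIs in the tumours.

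Aqp4 fell in endothelial-like cells as well, from 43.8 to 3.11 and 8.09 CPM (2, 29 and 41 UMIs; log2 -2.39, SE 0.50, adjusted p = 1.45e-05), or by -3.49 without tumour 2. Endothelial cells are not known to make this channel. The astrocyte markers in the class moved with it, at 413, 515 and 1415 CPM. Of 15 astrocyte homeostasis genes tested there 11 were lower and 0 higher, with a median log2 change of -1.49. Those with the largest falls were Sox9 (log2 -2.18), Atp1b2 (-1.98) and Mlc1 (-1.73). Aqp4 was also low relative to these markers: per 100 astrocyte-marker UMIs there were 0.75, 1.57 and 3.09 Aqp4 UMIs in endothelial-like cells and 4.70, 5.14 and 8.56 in astrocyte-like cells.

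The 2 classes were compared in 1 model with library as a block. Of 11519 genes, 913 (7.93%) changed differently in astrocyte-like and endothelial-like cells, and 3 of the 10 genes were among them. The astrocyte change minus the endothelial change was -5.22 (SE 1.10, adjusted p = 0.000147) for Anxa1, on the log2 scale, and 1.45 (SE 0.47, adjusted p = 0.0294) for Aqp4. For Osmr it was 8.33 (adjusted p = 0.000594), a fitted value that depends on the 0 UMIs of the normal astrocyte-like cells and is no bound. Without the library block the Anxa1 difference remained past the threshold (-5.13, adjusted p = 0.00797), whereas Aqp4 (1.44, adjusted p = 0.0994) and Osmr (7.97, adjusted p = 0.051) did not. The Anxa1 difference leans on 6 UMIs in the normal astrocyte-like class, close to the 7.2 that neutrophil RNA would bring. For Vim the difference was -1.26 (SE 0.70, adjusted p = 0.2997), so its changes in these classes were not shown to differ.

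**Figure D4:**
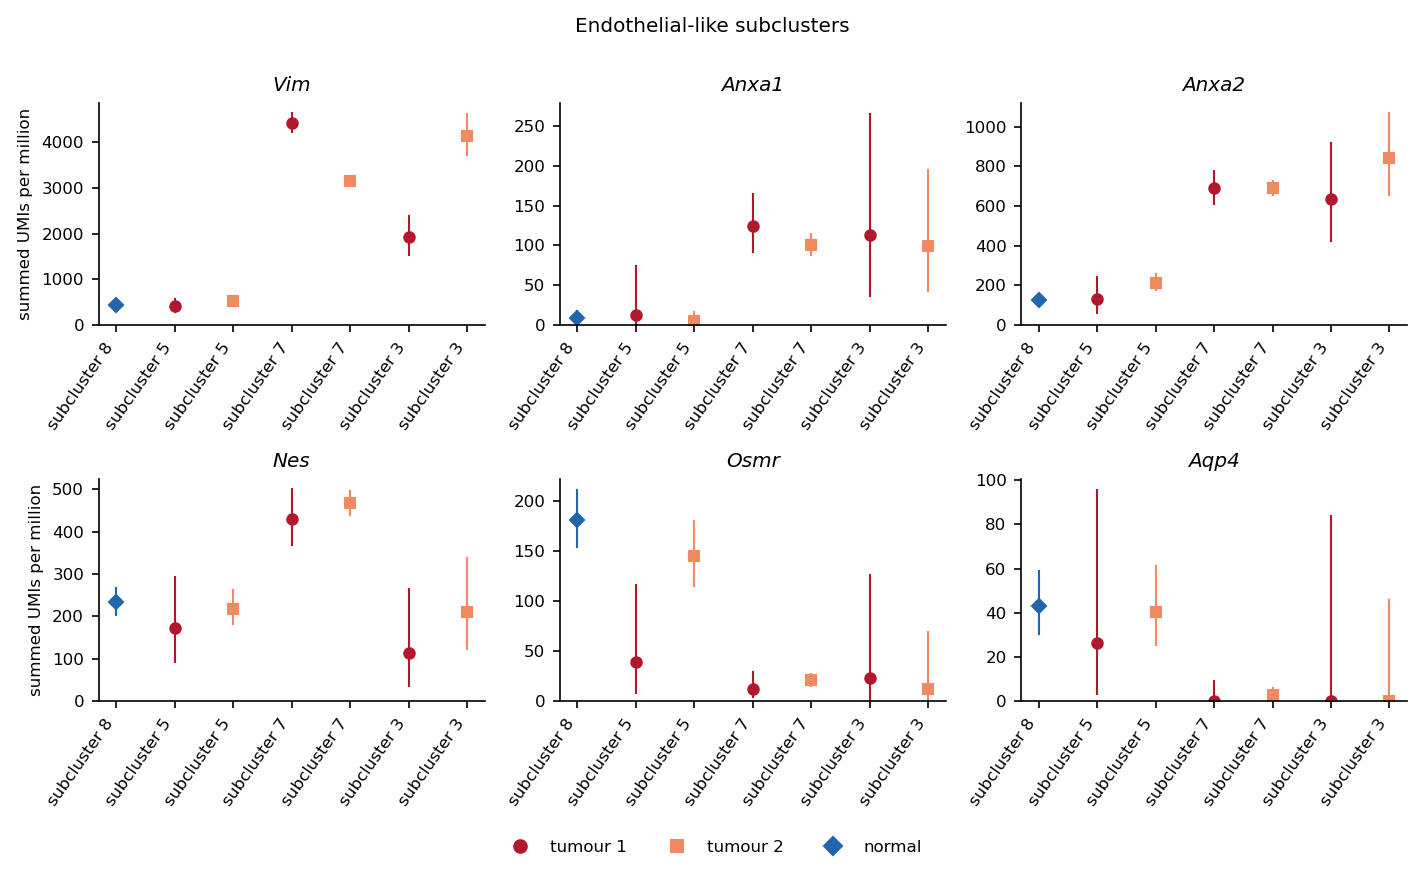
Level (CPM of summed UMIs, linear axis) of Vim, Nes, Anxa1, Anxa2, Osmr and Aqp4 in endothelial subclusters of each library, with bars for 95% counting intervals. Tumour subcluster 5 lies near normal subcluster 8 for Vim and Osmr (519 and 434 CPM, 145 and 181 CPM), while tumour subcluster 7 is high in Vim and low in Osmr.

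Within the endothelial-like class the tumour cells were of several kinds. Of the 144 normal cells, 141 lay in vessel subcluster 8, led by Cxcl12 and the transporter gene Slco1a4. Of the tumour cells, 1 and 8 lay there too, and most of the others in subclusters 0, 3, 5 and 7. Subcluster 5 (6 and 35 cells) was led by Slco1a4, Ly6c1 and Abcb1a, genes of blood-brain barrier endothelium. Its tumour 2 levels of Vim, Osmr and Aqp4 lay near those of normal subcluster 8, while Anxa2 was higher. Its tumour 1 levels rest on 6 cells. In tumour 2 it had 519 CPM of Vim, 5.51 of Anxa1, 215 of Anxa2, 145 of Osmr and 40.4 of Aqp4, beside 434, 9.05, 126, 181 and 43.0 CPM in normal subcluster 8. Subcluster 7 (13 and 61 cells) was led by Ctla2a, Ccn2, Angpt2, Apln and Esm1, the last 3 known from sprouting vessels. It had 4425 and 3164 CPM of Vim, 125 and 100.4 of Anxa1, 690 and 691 of Anxa2, 12.5 and 20.7 of Osmr, and 0 and 2.64 of Aqp4. The tumour and normal cells of this class thus lay mostly in different subclusters. Subcluster 3 (27 and 44 cells of 992 and 1642 median UMIs) was also high in Vim (1932 and 4149 CPM) and Anxa2 (636 and 842 CPM). Subcluster 0, which carried microglia genes, was low in Anxa1 (0 and 3.00 CPM), and without it the calls of Vim (log2 3.21), Anxa1 (3.55), Anxa2 (2.61), Osmr (-2.06) and Aqp4 (-2.10) held. Normal cells numbered 1 in subcluster 5 and 1 in subcluster 7, too few for a within-subcluster comparison.

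As named groups, mural-like cells and vessel subcluster 6 were found in the tumours only, so there is no normal value beside them. Mural markers were present in the normal endothelial-like class, as given above, and their part in its levels was not tested. Mural-like cells (43 and 135) had 2499.5 and 2865 CPM of Vim, 393 and 468 of Nes, 208 and 286 of Anxa1, 448 and 625 of Anxa2, and 21.6 and 32.7 of Osmr. Most of these UMIs came from subcluster 2, whose cells had median totals of 50199 and 83243 UMIs and carried endothelial as well as mural markers, and Xist was detected in 37.2% and 19.3% of the mural-like cells. In subcluster 4 (12 and 51 cells), a mural subcluster of lower totals, Anxa1 stood at 876 and 572 CPM and Osmr at 0 and 7.63 CPM. Subcluster 6 (29 and 50 cells), led by matrix genes such as Col3a1 and Dcn, had the largest Cd44 level of the vessel groups, 54.6 and 53.5 CPM, with 329 and 546 CPM of Anxa1 and 58.2 and 42.5 of Osmr. Its Xist level was 3.56 and 4.11 CPM and its Y-linked genes summed to 205 and 203 CPM. Cdkn2a stood there at 637 and 350.2 CPM, beside 438 and 457 CPM in glioma, and the origin of these cells was not tested.

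In glioma cells all 10 genes were detected. Gfap was low at 7.91 and 7.53 CPM, Aqp4 at 3.44 and 3.51 CPM and Anxa1 at 0.513 and 0.794 CPM, with 17 of its 51 UMIs in tumour 1 from 1 cell. Vim stood at 260 and 400 CPM, Nes at 101.1 and 118, Serpina3n at 66.3 and 61.2, and Stat3 at 147 and 123. For cytokine and matrix receptors the levels were 12.96 and 6.27 CPM of Osmr and 17.9 and 15.3 CPM of Cd44, and Anxa2 stood at 64.6 and 64.6 CPM. Tumour 2 had 0.48-fold (0.43 to 0.54) the Osmr level of tumour 1 and 1.54-fold (1.51 to 1.56) its Vim level. Normal brainstem held 1 such cell, so no tumour-normal comparison was made.

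**Figure D5:**
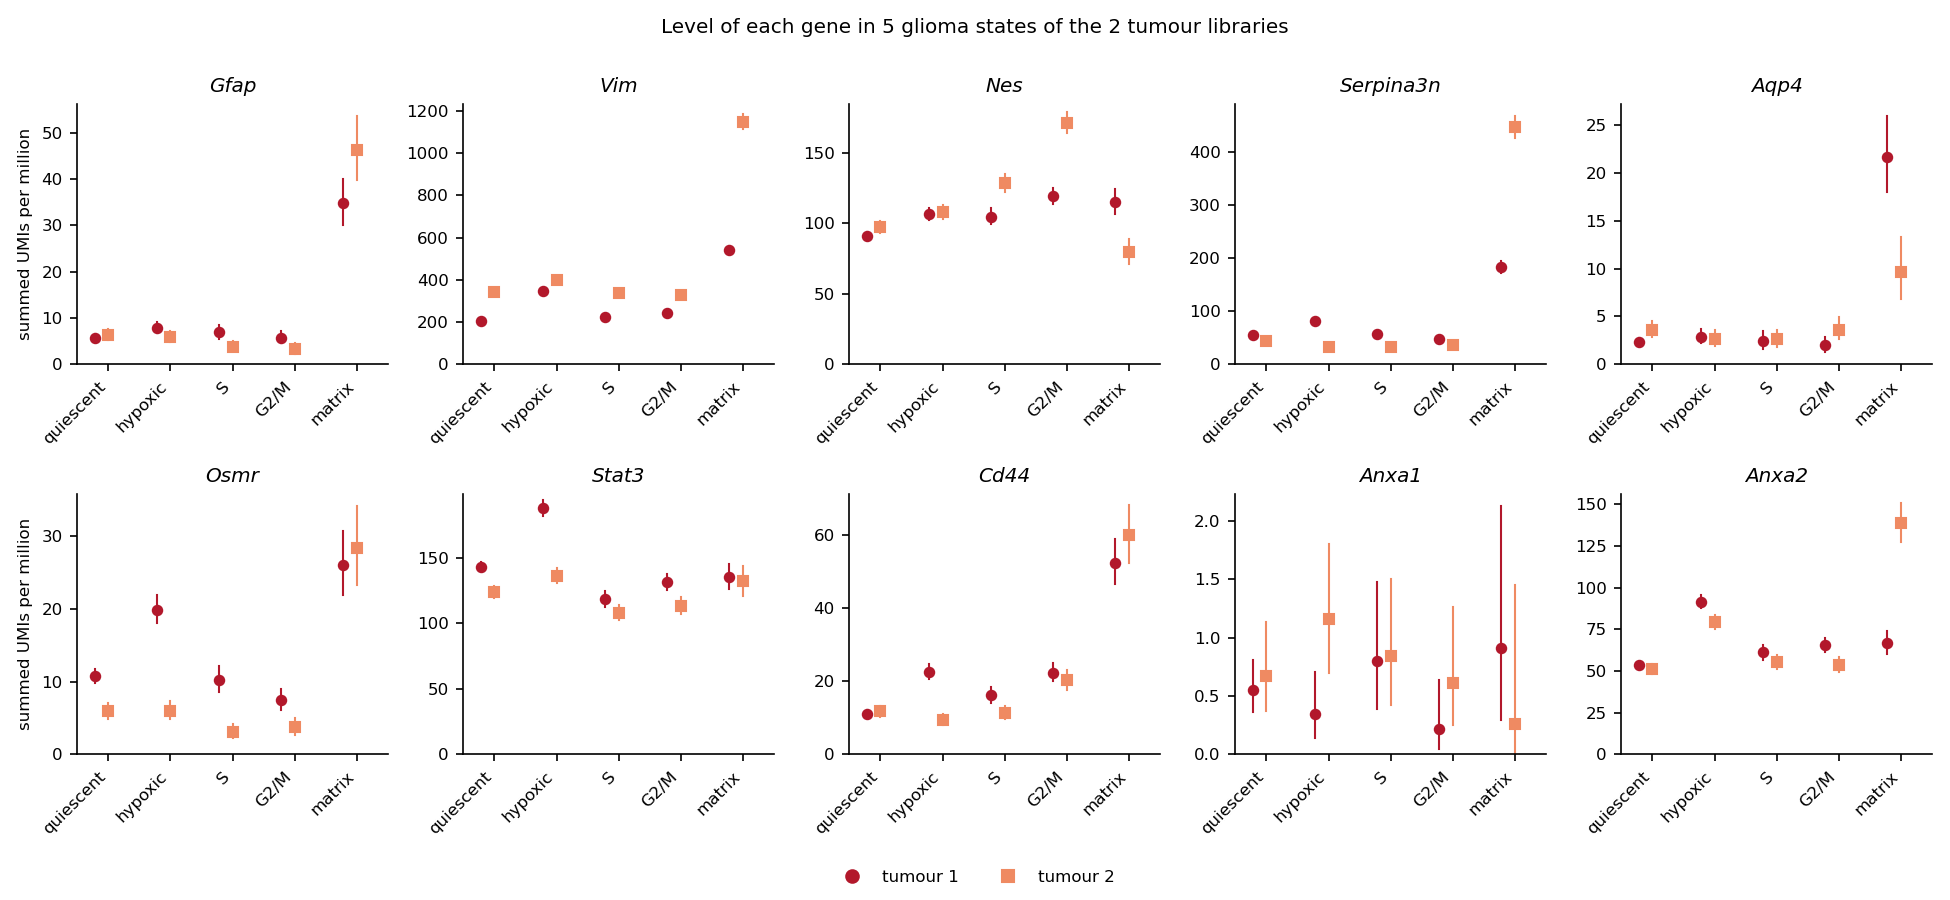
Level (CPM of summed UMIs, linear axis) of each gene in the 5 glioma states of tumour 1 and tumour 2, with bars for 95% counting intervals. The matrix state stands above the others for Gfap, Serpina3n, Vim, Cd44, Osmr and Aqp4 in both tumours, while Stat3 is highest in the hypoxic state and Nes in the G2 and M phase state.

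Glioma cells were divided into quiescent progenitor, hypoxic, S phase, G2 and M phase, and matrix states without use of the 10 genes. The matrix state had 255 and 164 cells led by Mgp, Ahnak, Col6a2, Papss2 and Fmod. In both tumours it held the highest level of Gfap, Vim, Serpina3n, Aqp4, Osmr and Cd44. Anxa2 was highest there in tumour 2 alone. Anxa1 was highest there in tumour 1, on 5 UMIs, and lowest there in tumour 2. The share of all genes that are highest in this state is not given here. Gfap stood at 34.8 and 46.4 CPM in the matrix state and at 6.33 and 5.11 CPM over the other 4 states, a ratio of 5.50 (4.65 to 6.48) in tumour 1 and 9.08 (7.51 to 10.9) in tumour 2. Serpina3n stood at 182 and 447 CPM there, 3.06-fold (2.86 to 3.28) and 12.0-fold (11.3 to 12.8) above the other states. Vim stood at 541 and 1149 CPM, ratios of 2.22 and 3.25. The intervals cover counting error only, and those of tumour 1 and tumour 2 did not overlap for any of these 3 genes.

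The receptor genes also led in the matrix state. Cd44 stood at 52.3 and 59.9 CPM (ratios 3.30 and 4.77 over the other states) and Osmr at 26.1 and 28.4 CPM (2.14 and 5.798), with intervals that again did not overlap between the tumours. Aqp4 reached 21.7 and 9.64 CPM, 9.14-fold (7.26 to 11.5) and 3.08-fold (2.11 to 4.396) above the other states. Of these Aqp4 UMIs 28 of 119 and 9 of 37 came from 1 cell in each tumour. The summed astrocyte markers stood at 1493 and 1178 CPM in the matrix state and at 1513 and 1152 CPM in glioma as a whole. Matrix-state cells kept the graft pattern, with Xist at 974 and 1073 CPM and Y-linked genes at 3.10 and 8.33 CPM. Anxa2 differed between tumours, with a ratio of 1.04 (0.93 to 1.15) in tumour 1 and 2.32 in tumour 2. Stat3 did not follow Osmr: it was highest in the hypoxic state at 188 and 136 CPM, and its matrix ratio was 0.91 and 1.08. Nes was highest in the G2 and M phase state at 119 and 171 CPM.

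Cells with at least 5 Gfap UMIs were rare. They numbered 35 of 10550 in tumour 1, 28 of 9407 in tumour 2 and 0 of 3083 in normal, where totals per cell were lower. Of them 23 and 12 were glioma cells, 3 and 2 astrocyte-like and, in tumour 2, 7 endothelial-like. A further 6 and 2 lay in an unnamed cluster described below.

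Summed over all kept cells, 3 of the 10 genes were higher in tumour and 3 lower, where 13.1% of 20449 genes were higher and 8.36% lower, 21.5% in all. In such sums fewer cells of a type and less RNA per cell cannot be told apart. Serpina3n stood at 49.9 and 28.4 against 0.994 CPM (log2 5.84, adjusted p = 0.00872), Nes at 82.2 and 87.8 against 22.6 CPM (log2 2.47, adjusted p = 0.0124), and Stat3 at 131 and 102 against 65.5 CPM (log2 1.38, adjusted p = 0.0319). The genes lower in tumour were Anxa1 at 15.2 and 33.8 against 798 CPM (log2 -4.44, adjusted p = 0.0121), Cd44 at 24.0 and 30.0 against 164 CPM (log2 -2.04, adjusted p = 0.0152) and Aqp4 at 21.8 and 9.37 against 153 CPM (log2 -2.77, adjusted p = 0.0183). Neutrophil-like cells were 17.6% of the normal cells and 3.06% and 5.25% of the tumour cells. Without blood cell classes the Cd44 change was 1.59 (adjusted p = 0.0298) and the Anxa1 change 0.23 (adjusted p = 0.855). In that setting Vim (2.45) and Anxa2 (1.80) were also higher, Serpina3n, Nes and Stat3 stayed higher and Aqp4 was lower (-3.30). Library size as the sole scaling moved the median of all genes from 0.14 to -0.42, and Stat3 (0.83) was then not called.

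Among the other classes, microglia-like cells had 3 of the 10 genes higher, with 12.8% of genes higher and 6.7% lower (19.5% in all). Vim rose from 10.6 to 46.9 and 34.7 CPM (log2 2.41, adjusted p = 0.00277), Anxa2 from 6.80 to 31.8 and 36.0 CPM (log2 2.81, adjusted p = 0.00277) and Cd44 from 4.54 to 14.8 and 11.9 CPM (log2 2.03, adjusted p = 0.0175). In this class Xist stood at 17.3, 23.4 and 0 CPM and Cdkn2a at 21.9, 14.5 and 0 CPM for tumour 1, tumour 2 and normal. The part of glioma RNA in these rises was not tested. Aqp4 fell from 27.2 to 1.74 and 0.705 CPM there (log2 -4.06, adjusted p = 0.00277). Astrocyte markers in the class summed to 234, 143 and 460.4 CPM, and 4 of 19 astrocyte homeostasis genes were lower and 0 higher by edgeR. There were 0.744, 0.491 and 5.91 Aqp4 UMIs per 100 astrocyte-marker UMIs. In neutrophil-like cells Anxa1 fell from 3162 to 1366 and 821 CPM (log2 -2.11, adjusted p = 0.000465) and Vim from 408 to 316 and 265 CPM (log2 -1.07, adjusted p = 0.0251), while Nes rose (15.3 and 9.91 against 0.403 CPM, adjusted p = 0.0471). Glioma RNA traced by Xist would bring 9.36 of the 13 and 3.57 of the 15 Nes UMIs of the tumours, and its part in the result was not tested. Cdkn2a stood at 49.4 and 23.8 CPM in the neutrophil-like cells of the tumours, beside 438 and 457 CPM in glioma. Scaling by it would give more, mainly in tumour 2. The class joined a pair of clusters, of which 1, led by Ngp, Camp and Ltf, held 415 of the 542 normal cells and 53 and 33 of the 323 and 494 tumour cells. Of all genes tested there 8.11% were higher and 9.09% lower, 17.2% together. The Vim change there was 0.19 at the finer clustering. Neuron-like cells had Vim higher (19.3 and 53.9 against 6.52 CPM, adjusted p = 0.0123), with 2.51% of genes higher and 0.526% lower (3.04% together). Glioma RNA traced by Xist would bring 18.8 and 9.72 CPM of that Vim, and its part in the result was not tested. With Cdkn2a at 26.3 and 21.1 CPM in the neuron-like cells of the tumours, scaling by it would give less in tumour 1 and more in tumour 2. In T or NK-like cells Anxa2 (log2 -1.55, adjusted p = 0.00239) and Cd44 (log2 -1.49, adjusted p = 0.0148) were lower, with 1.92% of genes higher and 1.63% lower (3.55% together). Border macrophage-like, B-like and choroid plexus-like cells gave 0 calls among the 10 by edgeR or DESeq2, with 2, 1 and 0 genes at an unadjusted p below 0.05. The higher and lower shares of all genes were 1.52% and 1.44% (2.96% together), 5% and 5.98% (11% together), and 0% and 0.334%.

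The genes whose levels ran most like each member were found over 57 profiles of class and library, among 12747 genes, by the Pearson correlation of log2(CPM + 10). The profiles share libraries and differ in depth, so the values are descriptions. Aqp4 was closest to Mlc1 (0.96), Slc6a11 and Bbox1, Vim to Tpm4 (0.88), Tagln2 and Myl6, and Nes to Lama4 (0.92), Cdkn2b and Bok. Anxa1 was closest to S100a11 (0.94), Plp2 and S100a6, Anxa2 to Slc25a24 (0.84), Vim and Myl6, and Cd44 to Slfn1 (0.79), Mgst2 and Rgs14. Serpina3n was closest to Gata6 (0.89), Npy and Chadl, Osmr to Tns2 (0.85), Hmcn1 and Ankrd50, Stat3 to Ier2 (0.78), Ostf1 and Klf10, and Gfap, with the weakest likeness, to Rcan2 (0.72), Ccn1 and Cpe.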

How the data were processed

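Single-cell RNA was sequenced with the 10x Genomics method from 3 brainstems. The deposited files hold raw UMI counts for each gene in each barcode. Per the file headers they come from Cell Ranger 6.1.2, and the submitters' processing notes name the build mm10. Barcodes were already limited to called cells. The 10 genes and all lists were chosen with earlier results of these data known.

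Barcodes with at least 500 UMIs, 300 genes and at most 15% mitochondrial UMIs were kept (26.3% of normal and 9.71% and 9.57% of tumour barcodes exceeded that limit). Doublets called by Scrublet (expected rate 8%) were removed, 375, 238 and 46 barcodes. Counts were scaled to 10000 per cell, and variable genes without the 10 gave 30 principal components, 15 neighbours and Leiden clusters at resolution 1.0 (scanpy 1.11.5, igraph 0.11.9), with no integration across libraries. A cluster was named where its best marker list scored at least 1 with 3 markers detected in 10% of cells and led its top 10 genes. The score, and the second clustering of vessel and glioma cells (resolutions 0.5 and 0.3), were set after the clusters had been seen. Glioma states took the name of their best-scoring list, and the scores of the quiescent progenitor (0.426) and matrix (0.787) states were below 1.

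UMI counts were summed per library and class, for classes holding 20 or more cells in each library. All genes past filterByExpr were tested by quasi-likelihood in edgeR 4.0.16 (R 4.3.3, TMM scaling, two-sided, Benjamini-Hochberg threshold 0.05), tried first on simulated data. Nothing in the labels says how the samples relate beyond their titles. The alternatives, 17 in all, included DESeq2 1.42.0, scaling, filters, doublets, clustering and left-out libraries. Levels are CPM with exact Poisson intervals, shares of cells were taken after thinning to 1000 UMIs, and ratios have exact conditional binomial intervals. The limit for a count of 0 is 3 counts in the class. Beside the 10 genes, up to 3 genes per list and direction with the largest called change and 3 genes most like each member were named. For 1 list, a gene that this rule would name is not reported here. RNA of another class was scaled by that class's markers (Xist for glioma). Of the feature identifiers 32158 matched the annotation.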

Additional observations from a re-analysis of the deposited data

Results flagged for a closer look

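For 3 of the 10 genes the tumour-normal change differed between astrocyte-like and endothelial-like cells in the test of the difference itself. Over all 11519 genes tested, 913 (7.93%) did so. The astrocyte change minus the endothelial change, on the log2 scale, was -5.22 for Anxa1, 1.45 for Aqp4 and 8.33 for Osmr. Without the library block Anxa1 alone (-5.13) stayed past the threshold, with Aqp4 at adjusted p = 0.0994 and Osmr at 0.051. The Osmr value rests on 0 UMIs in normal astrocyte-like cells. The Anxa1 value leans on 6 UMIs there, close to the number that neutrophil RNA would bring, and the part of that RNA was not tested.

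A cluster left without a name, because genes of another list led it, was outside every comparison. It held 680, 305 and 6 cells in tumour 1, tumour 2 and normal. Gfap stood there at 68.6 CPM in tumour 1 and 35.4 CPM in tumour 2, and Serpina3n at 119 and 22.4 CPM, above the 1.67 and 3.54 CPM that a count of 0 allows in these cells. Of the 214 Serpina3n UMIs of tumour 1, 128 came from 1 cell. The normal cells of the cluster were too few to compare, since a count of 0 allows 634 CPM there.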

How the results depend on the processing

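Of 626 log2 changes recomputed under the alternatives, 563 kept their direction and side of the threshold, 24 lost the threshold, 20 gained it, 15 moved and 4 reversed. Reversed were Cd44 (1.59), Anxa1 (0.23) and Anxa2 (1.80) in all kept cells without blood classes, and Vim in neutrophil-like cells (0.19) at resolution 2.0. Without blood classes 6 of the genes were higher and 1 lower in all kept cells, beside 3635 and 2079 of all 20254 genes tested. In astrocyte-like cells 1 was higher without the low-count filter, with doublets kept, or among cells without an Xist UMI, and 2 at resolution 2.0. Over all genes these settings called 416 of 17883, 529 of 10226, 338 of 9482 and 406 of 9793 higher, in that order. Brackets below hold the genes called in the same direction out of all genes tested. In endothelial-like cells 3 were higher with library size alone (1378 of 9990) or DESeq2 (759 of 9990), and 0 lower with DESeq2 (244 of 9990). Microglia-like cells had 6 higher without the filter (2767 of 20689) and 5 with doublets kept (2037 of 15020). Border macrophage-like cells had 1 higher without the filter (564 of 19212) and 2 at resolution 2.0 (205 of 12614). B-like cells had 1 higher with doublets kept (245 of 6118). Neuron-like cells had 0 higher with RLE (151 of 10831) or DESeq2 (126 of 10831) and 2 under the stricter cell filter (358 of 10430). Neutrophil-like cells had 2 higher with library size alone (1892 of 9721). They had 0 higher with RLE (648 of 9721), DESeq2 (316 of 9721), the stricter filter (598 of 9655) or resolution 2.0 (95 of 4224). Lower was 1 with library size alone (403 of 9721), DESeq2 (255 of 9721) or resolution 2.0 (74 of 4224). T or NK-like cells had 0 lower with RLE (40 of 5094) or DESeq2 (12 of 5094) and 1 without the filter (78 of 14519). The cause was not tested. DESeq2 called 35 genes higher and 22 lower in astrocyte-like cells, against 244 and 189 by edgeR, and 759 and 244 in endothelial-like cells, against 1928 and 1381.

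Leaving out tumour 1 or tumour 2 left 1 library against 1 and so a value with no test. No paired analysis was possible because the tumour and normal libraries share only replicate number 1. Of 200 shares of cells recomputed at another depth, 122 moved. The alternatives without vessel subcluster 0 and with the low-UMI astrocyte cluster were chosen after seeing the data. In the latter Aqp4 stayed lower (log2 -0.80, adjusted p = 0.0303). The lone normal library, its lower depth and the small numbers of UMIs limit every value.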
